A study of Mus musculus with 5 samples.

Results

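The 9 histone acetyltransferase genes described here are Ep300, Crebbp, Kat2a, Kat2b, Kat5, Kat6a, Kat6b, Kat7 and Kat8, taken from 21779 protein-coding genes of the mouse mm10 assembly. They were chosen by name, and every ZFP541 ChIP-seq peak that overlapped a gene body or the 10 kb on either side of it was read from 3 peak lists. The peak lists came from 1 ChIP library of Zfp541-/- spermatocytes (KO) and 2 ChIP libraries of wild-type spermatocytes (WT, replicates 1 and 2), all made with the same antibody against ZFP541, a germ-cell protein with zinc fingers. ChIP-seq pulls down cross-linked chromatin with an antibody and sequences the DNA it holds. All libraries came from adult C57BL/6 testes, with pachytene and diplotene spermatocytes enriched by STA-PUT sedimentation; 2 WT input libraries were not analysed here. The labels do not say whether the WT replicates came from separate animals, and no marker of cell purity can be read from peak lists.

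Histone acetyltransferases transfer an acetyl group to lysines of histone tails, a mark of open and transcribed chromatin that bromodomain proteins read and histone deacetylases remove. The p300/CBP family (Ep300, Crebbp) consists of large coactivators that transcription factors recruit. The GNAT family members GCN5 (Kat2a) and PCAF (Kat2b) work in the SAGA and ATAC complexes, and the MYST family (Kat5, Kat6a, Kat6b, Kat7, Kat8) works in complexes of its own. In the testis, histones of elongating spermatids become highly acetylated before protamines replace them, and ZFP541 is known as a partner of KCTD19 and the deacetylases HDAC1 and HDAC2.

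The KO list held 256 peaks, against 8236 and 10371 peaks in WT replicates 1 and 2, and read depth is unknown from these files. The KO list had no peak at Zfp541, where the highest folds were 18.6 and 22.2 in WT replicates 1 and 2; a list this short misses nearly every gene, so this does not check the genotype label. The fold is the enrichment over background that the authors' peak caller gave each peak; it ranks peaks within 1 list, and its percentile below is its place among all peaks of that list. Peaks of the WT replicates that shared at least 1 bp were joined into 5325 ZFP541 regions, after 132 with a KO peak had been left out. A gene is called occupied where such a region reached the window within 1 kb of either gene end. With 1 KO library and peak lists only, no test between genotypes or between gene sets was run.

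The stretches of DNA just before annotated starts of transcription are given first for 5 of the genes, to set 3 occupied genes with an annotated start beside 2 genes with no peak within 10 kb. Each is the 250 bases before a RefSeq start (GRCm38.p6, the assembly of mm10), read 5′ to 3′ on the gene's strand. Capitals mark any match, on either strand, to GGGCGG (the box bound by Sp and KLF factors), CCAAT (a box bound by NF-Y), TGACGT (part of the cAMP response element), CACGTG (an E-box), CCGGAAG (an ETS site), TGCGCA (part of the NRF1 site) or CAACTG (a MYB site). Kat6b lies on the plus strand (chr14:21499520-21499769), Crebbp on the minus strand (chr16:4213405-4213654), Kat2b on the plus strand (chr17:53566721-53566970), Kat5 on the minus strand (chr19:5609745-5609994) and Kat7 on the minus strand (chr11:95310247-95310496).
Kat6b: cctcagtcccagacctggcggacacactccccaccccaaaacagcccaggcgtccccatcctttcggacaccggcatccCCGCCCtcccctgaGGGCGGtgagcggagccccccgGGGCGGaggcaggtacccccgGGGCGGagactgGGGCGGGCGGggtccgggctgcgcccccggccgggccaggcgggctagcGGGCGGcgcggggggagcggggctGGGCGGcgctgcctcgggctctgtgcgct
Crebbp: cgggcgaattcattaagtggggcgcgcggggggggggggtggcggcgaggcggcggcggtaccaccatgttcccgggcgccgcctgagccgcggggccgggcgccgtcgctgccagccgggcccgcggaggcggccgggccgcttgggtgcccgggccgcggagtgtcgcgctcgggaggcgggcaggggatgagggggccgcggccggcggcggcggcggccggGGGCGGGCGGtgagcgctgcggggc
Kat2b: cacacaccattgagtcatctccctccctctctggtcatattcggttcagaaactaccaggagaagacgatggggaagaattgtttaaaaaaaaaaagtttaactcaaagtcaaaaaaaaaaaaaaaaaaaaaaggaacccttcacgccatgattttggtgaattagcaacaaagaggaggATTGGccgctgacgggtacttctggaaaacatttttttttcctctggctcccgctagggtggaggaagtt
Kat5: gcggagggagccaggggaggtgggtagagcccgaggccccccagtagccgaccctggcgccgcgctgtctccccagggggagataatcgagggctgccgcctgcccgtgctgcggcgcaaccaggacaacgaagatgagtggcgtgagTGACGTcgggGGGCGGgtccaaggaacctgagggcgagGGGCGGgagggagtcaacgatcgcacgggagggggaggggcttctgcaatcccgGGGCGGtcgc
Kat7: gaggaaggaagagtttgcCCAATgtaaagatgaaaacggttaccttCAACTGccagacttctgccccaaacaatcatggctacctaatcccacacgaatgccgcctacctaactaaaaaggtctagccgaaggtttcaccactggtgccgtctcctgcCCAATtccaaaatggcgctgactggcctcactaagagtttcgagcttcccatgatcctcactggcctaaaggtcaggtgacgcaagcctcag

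WT peaks of both replicates covered all 250 bases before the Kat6b start. At Crebbp, WT replicate 1 covered 250 and WT replicate 2 covered 180 of these bases. At Kat2b only the last 42 bases before the start were covered, by the WT replicate 1 peak, because the peaks lay almost wholly downstream. No base of the Kat5 and Kat7 windows was in a peak. The Kat6b window held 8 matches to GGGCGG, with 2 of them overlapping, and 27 CpG dinucleotides. The Crebbp window held 2 overlapping GGGCGG matches and 44 CpGs, the most of the 12 start windows of these genes. The Kat5 window shown had 3 matches to GGGCGG, 1 to TGACGT and 24 CpGs. The window of the other annotated Kat5 start, upstream at 5610094, differed. It had no match to GGGCGG or TGACGT, 1 to CCAAT, 1 to CACGTG and 15 CpGs. The Kat2b window shown had 1 match to CCAAT and 6 CpGs, and Kat7 had 2 to CCAAT, 1 to CAACTG and 8 CpGs. Among all 21263 start windows of protein-coding genes, 42.6% held GGGCGG, 35.4% CCAAT, 10.2% CAACTG, 8.98% CCGGAAG, 8.06% TGCGCA, 7.37% TGACGT and 6.63% CACGTG. A match describes letters and is not evidence that a factor binds there.

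No KO peak lay in or within 10 kb of any of the 9 genes, where 0.34% of all protein-coding genes had one, so an absence is what a list of this length gives for nearly every gene. WT replicate 1 had 7 peaks at 5 of the 9 genes, where the background over all protein-coding genes was 33.8%. WT replicate 2 had 12 peaks at 7 of the 9, against a background of 39.4%. The median was 1 peak per gene in each WT replicate, against 0 over all protein-coding genes. A ZFP541 region lay within 10 kb of 5 of the 9 genes (background 29.3%), and 4 of the 9 were occupied at an end (background 21%): Crebbp, Kat2b, Kat6a and Kat6b. Ep300 and Kat2a had end peaks in WT replicate 2 only, Kat8 had a distant region and Kat5 and Kat7 had none. Without WT replicate 1, a WT replicate 2 peak alone would have counted, and 6 of the 9 were occupied, with Ep300 and Kat2a added, against 27.8% of protein-coding genes.

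**Figure D1:**
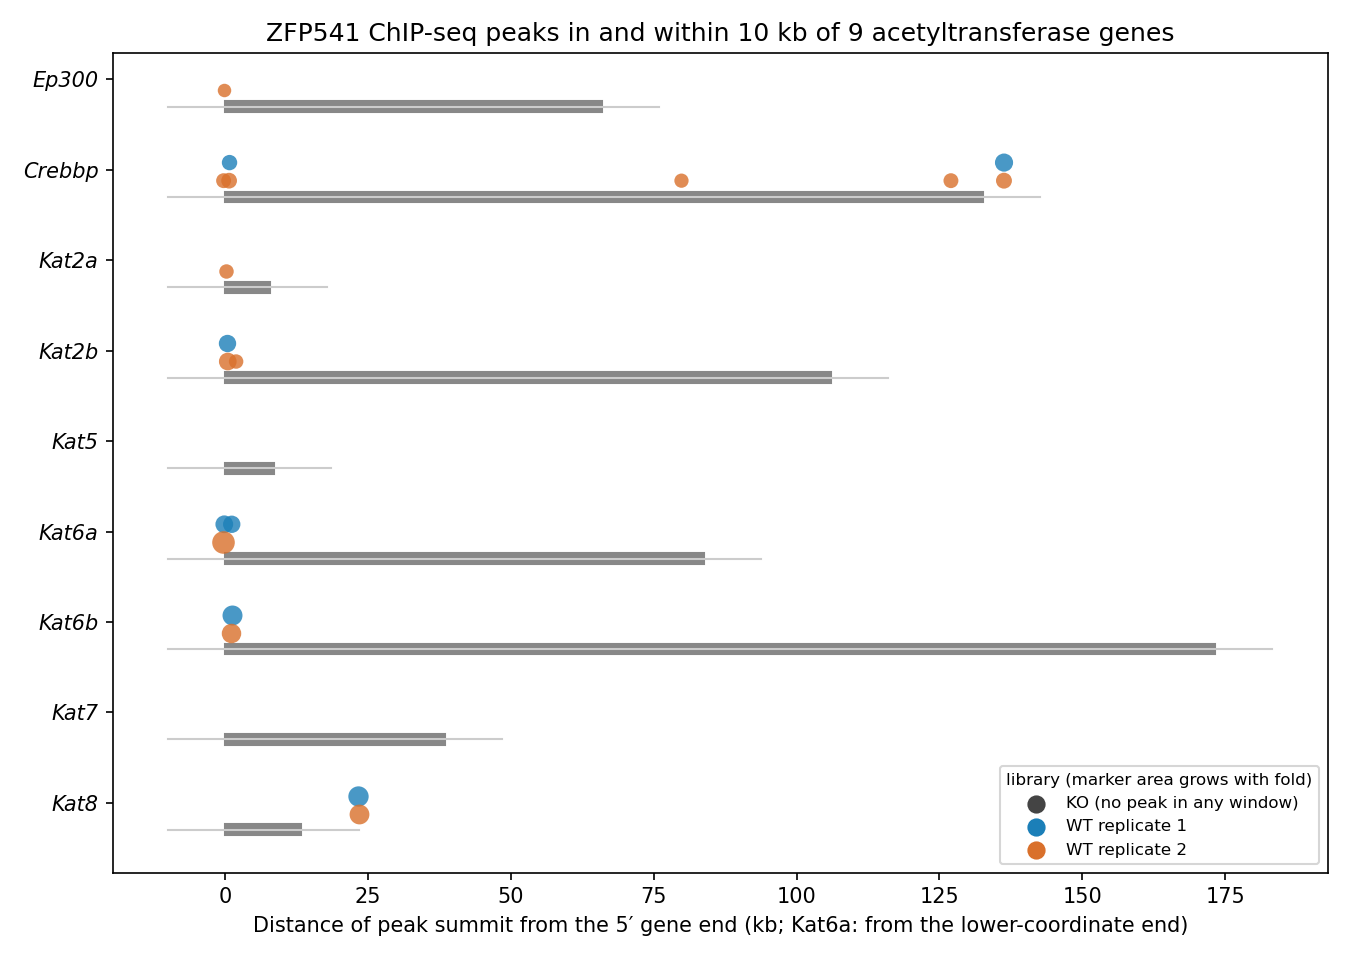
Peak summits (circles, area growing with fold) in the KO, WT replicate 1 and WT replicate 2 lists along each gene (dark bar) and its 10 kb flanks (thin line), as distance in kb from the 5′ gene end, or from the lower-coordinate end for Kat6a. Most summits sit at the start; those at Kat8 lie beyond the far end, and no KO peak is present.

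Crebbp and Ep300 encode the paralogous coactivators CBP and p300, and both replicates had peaks at the Crebbp start only. At Crebbp (chromosome 16, 4081334 to 4213957, minus strand) the KO list had no peak, against a fold of 4.06 in WT replicate 1 (4212949 to 4213818, 870 bp) and 4.36 in WT replicate 2 (4212720 to 4213584, 865 bp). These folds stood at percentiles 45.9 and 58.3 of their lists, with −log10 q-values of 3.54 and 3.62. The summits lay 178 and 103 bp downstream of the annotated start at 4213404. WT replicate 2 had a further peak 862 bp before this start, with a fold of 3.69, and peaks in the gene body with folds of 3.20 and 3.69, none of them in WT replicate 1. The strongest Crebbp peaks in both lists lay outside it, past its 3′ end, with folds of 6.43 and 4.50 in WT replicates 1 and 2. Their summits were 3680 and 3670 bp from the Crebbp end but 186 and 176 bp from an end of Trap1, which encodes a mitochondrial chaperone, at its start of transcription. The summits of the replicates there were 10 bp apart.

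Ep300 (chromosome 15, 81586209 to 81652077, plus strand) had no peak in the KO list and none in WT replicate 1, against 1 peak in WT replicate 2 (81585684 to 81586226, 543 bp). Its fold of 2.65 stood at percentile 5.24, with a q-value of 0.305, above 0.05. The summit lay 301 bp before the start. This is the weakest of the 19 peaks at these genes, in a replicate in which 2349 of the 10371 peaks had a q-value above 0.05. A peak of WT replicate 2 at an end without one of WT replicate 1 was found at 6.4% of protein-coding genes, and the reverse at 2.31%. The Ep300 window before the start held 25 CpGs, and Crebbp's held 44.

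Of the GNAT genes too, 1 had start peaks in both WT replicates and the other in WT replicate 2 only. Kat2b, the gene of PCAF (chromosome 17, 53566774 to 53672721, plus strand), had no KO peak. It had a fold of 5.71 in WT replicate 1 (53566929 to 53567741, 813 bp) and 6.04 in WT replicate 2 (53567012 to 53568128, 1117 bp), at percentiles 69.8 and 74.6. The −log10 q-values were 6.50 and 7.87. Both summits were downstream of the start at 53566971, by 45 bp in WT replicate 1 and 229 bp in WT replicate 2. A second, narrow peak of WT replicate 2 (203 bp, fold 3.36) lay 1687 bp downstream, and the other annotated Kat2b start, at 53584126, had no peak within its 250 bases. Kat2a, the gene of GCN5 (chromosome 11, 100704746 to 100712485, minus strand), had no peak in the KO list and none in WT replicate 1, against 1 in WT replicate 2 (100712234 to 100712828, 595 bp). Its fold was 3.36, at percentile 32.5, with a q-value of 0.0334, and its summit lay 82 bp downstream of the start. Whether the paralogues differ was not tested, and a site near the threshold may be called in 1 list and missed in the other.

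The MYST genes Kat6a and Kat6b, whose products MOZ and MORF acetylate histone H3 in complexes with BRPF proteins, carried the strongest end peaks of the 9 genes. At Kat6b (chromosome 14, 21499216 to 21672478, plus strand) the KO list had no peak, against a fold of 8.21 in WT replicate 1 (21499191 to 21501172, 1982 bp) and 7.72 in WT replicate 2 (21499139 to 21501289, 2151 bp). Both values stood high in their lists, at percentiles 86.2 and 84.2, with −log10 q-values of 13.4 and 12.7. The peaks were also among the wide ones, at percentiles 96.6 and 95.4 of width. Their summits lay 538 and 413 bp downstream of the nearest annotated start, at 21499785, and 125 bp apart. By mean percentile of fold over the 2 WT lists, Kat6b ranked 1184th of 4573 occupied protein-coding genes. Slc39a7, a zinc transporter gene, ranked just above (folds 6.50 and 10.7). Srfbp1, listed next, was tied with Kat6b and had the same folds, 8.21 and 7.72.

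At Kat6a (chromosome 8, 22859442 to 22943259) the KO list had no peak, and WT replicate 1 had a pair of peaks with folds of 6.07 (22858334 to 22859838, 1505 bp) and 5.71 (22860070 to 22860720, 651 bp). WT replicate 2 had a single peak with a fold of 11.1 (22858817 to 22860460, 1644 bp) that spanned the gap between them. The fold stood at percentile 73.1 in WT replicate 1 and 93.9 in WT replicate 2, the widest gap between the replicates among the 4 occupied genes, and the −log10 q-values were 7.41 and 23.8. The joined region, 2387 bp wide, lay at the gene end with the lower coordinate, and the summits were 185 and 383 bp outside it. The lncRNA gene Gm46036 ends at 22860439 in the same region, 119 bp from the second summit of WT replicate 1, so the region belongs to both annotations. Over all regions the median width was 1061 bp, the median distance between the replicates' summits was 90 bp, and the median folds were 5.36 and 6.04. The regions of Kat6a (2387 bp) and Kat6b (2151 bp) were wider than that median, while those of Kat2b (1200 bp) and Crebbp (1099 bp) were near it.

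**Figure D2:**
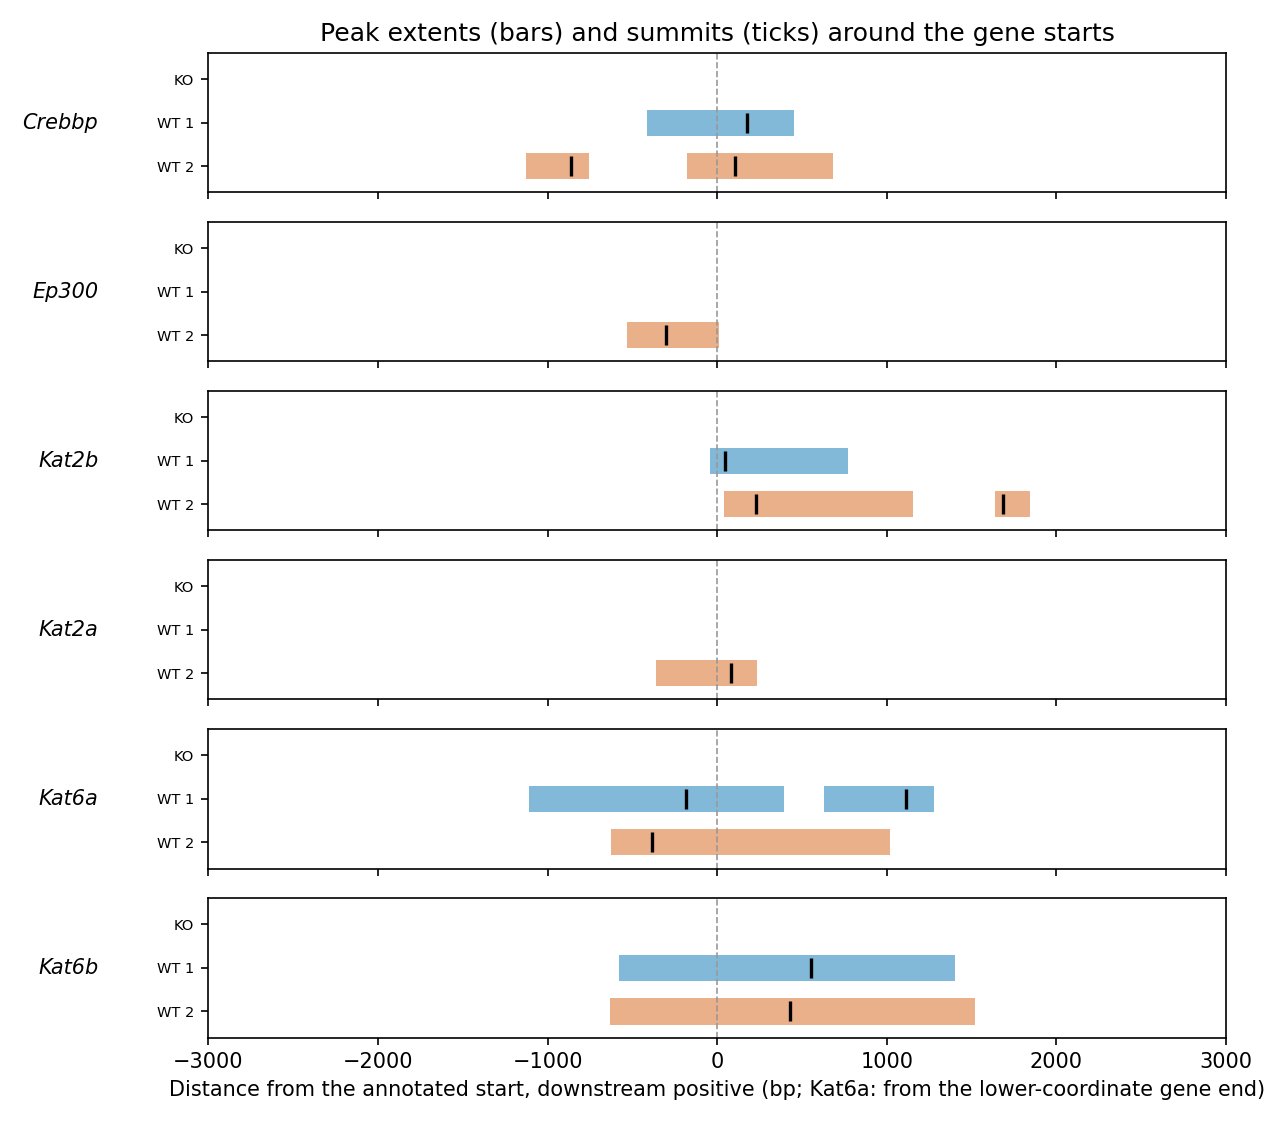
Extents (bars) and summits (ticks) of peaks in the KO, WT replicate 1 and WT replicate 2 lists within 3000 bp of the start of 6 genes, in bp with downstream positive; Kat6a is drawn from its lower-coordinate end, Kat2b and Kat6b from the first of their 2 starts. Ep300 and Kat2a have a bar in WT replicate 2 only, and the KO row is empty for all 6.

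The MYST genes Kat5, Kat7 and Kat8 were not occupied. Kat5, which encodes TIP60, the catalytic subunit of the NuA4-type complex (chromosome 19, 5603014 to 5611556), had no peak within 10 kb in any library. The nearest peaks lay 25223 and 25307 bp away in WT replicates 1 and 2, near an end of Rela, an NF-κB subunit gene. Kat7, which encodes HBO1 (chromosome 11, 95271853 to 95310246), had none either. Peaks of both WT replicates lay just outside its window, 12593 and 12591 bp from the gene with folds of 3.93 and 3.69, and the nearest coding gene was Tac4, a tachykinin gene. No WT peak within 10 kb in either replicate was also what 57.7% of protein-coding genes had.

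Kat8 encodes MOF, which acetylates lysine 16 of histone H4 in the MSL complex (chromosome 7, 127912517 to 127925838, plus strand). It had no KO peak, and the highest percentiles of any of the 9 genes in WT replicate 1, but far from its ends. The folds were 8.57 in WT replicate 1 (127935508 to 127936363) and 8.04 in WT replicate 2 (127935434 to 127936840), at percentiles 87.5 and 85.0. The summits lay 9875 and 10090 bp past the 3′ end of Kat8, so these peaks only just entered the 10 kb window and the second summit was already outside it. They were inside Prss36, a serine protease gene, 3075 and 3290 bp from its nearest end, and both Kat8 starts were free of peaks. A further WT replicate 2 peak, 11431 bp from Kat8 and with a fold of 3.36, fell just outside the window. With a flank of 5 kb, Kat8 had no peak and 4 of the 9 genes had a region, but the share of all coding genes at this flank was not counted.

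**Figure D3:**
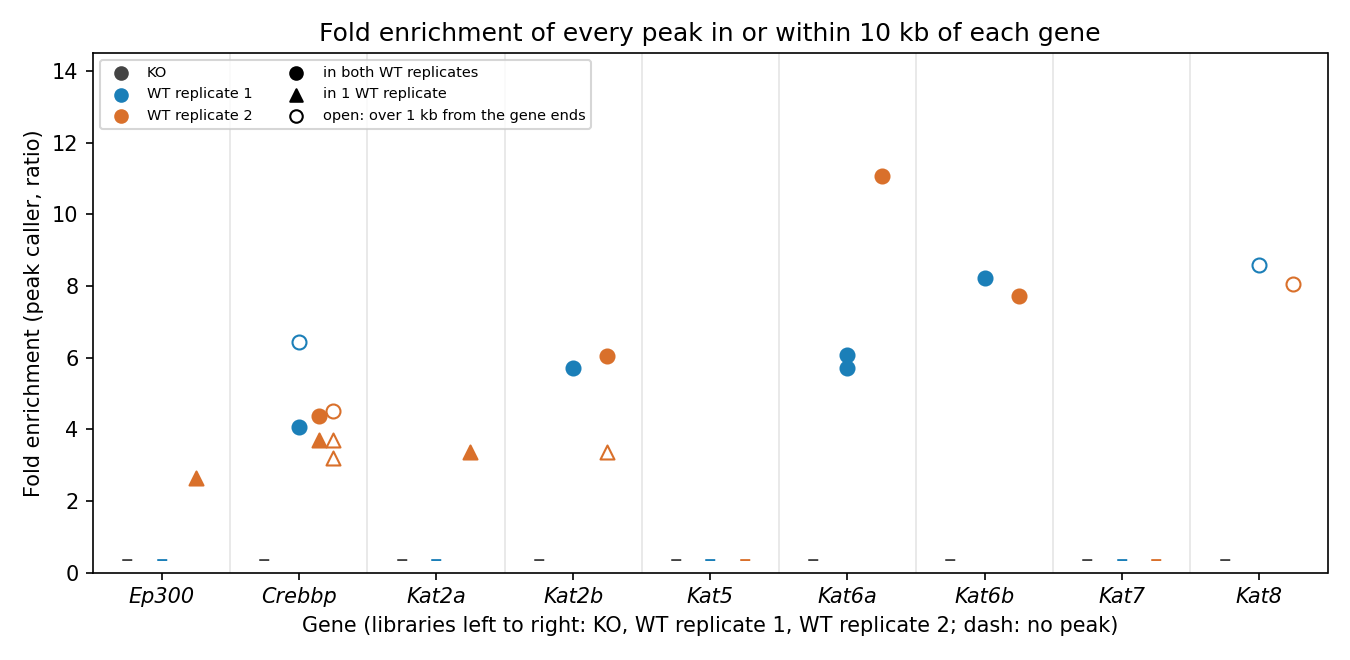
Fold enrichment of every peak in or within 10 kb of each gene, with the KO, WT replicate 1 and WT replicate 2 lists from left to right (dash, no peak); circles are peaks in a region of both WT replicates, triangles peaks of 1 replicate, and open symbols lie more than 1 kb from the gene's ends. The KO column is empty throughout, and the highest value is 11.1 at Kat6a in WT replicate 2.

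The 4 occupied genes were also the 4 longest of the 9, from 83818 bp (Kat6a) to 173263 bp (Kat6b), and the other 5 measured 7740 to 65869 bp. The windows at gene ends do not grow with gene length. The stretch searched for peaks within 10 kb does, from 27740 bp at Kat2a to 193263 bp at Kat6b. The counts within 10 kb and the shares beside them were not matched for length. Over all protein-coding genes, 31.3% of the 2974 genes of at least 83818 bp and 19.4% of shorter genes were occupied. The part of gene length in the pattern of the 9 genes was not tested.

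Crebbp, Kat2b and Kat6b were the occupied genes with an annotated start. The summits of the joined regions at these starts were all downstream in both WT replicates. The WT replicate 2 peak 862 bp before the Crebbp start was not in a joined region. Downstream summits were common in the whole set. Of 3477 regions whose WT replicate 1 summit was within 1 kb of a coding start, 69.8% had it downstream. Over all 3477, with upstream distances as negative values, the median position was 108 bp downstream. The WT replicate 1 summit at Kat6b, 538 bp downstream, was farther in than that median.

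CpG content of the start windows was uneven among the genes. The occupied Crebbp (44) and Kat6b (27 and 29 at its 2 starts) fell in the quartile of start windows with 20 to 56 CpGs, of which 52.3% overlapped a region. Ep300 (25) and the Kat5 start with the higher count (24) fell in that quartile too without a region. Kat2b had a region at its first start, with 6 CpGs, and none at its other start, with 5; both fell in the quartile with 4 to 10 CpGs, where 6.67% had one. Kat2a (11) was in the quartile with 11 to 19, of which 22.2% overlapped a region, as was the other Kat5 start (15). Kat7 (8) and Kat8 (5 and 10 at its 2 starts) shared the quartile of Kat2b. In the lowest quartile, with 0 to 3 CpGs, 0.405% of windows overlapped a region. These shares describe start windows, several of which can belong to 1 gene, and were not tested.

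**Figure D4:**
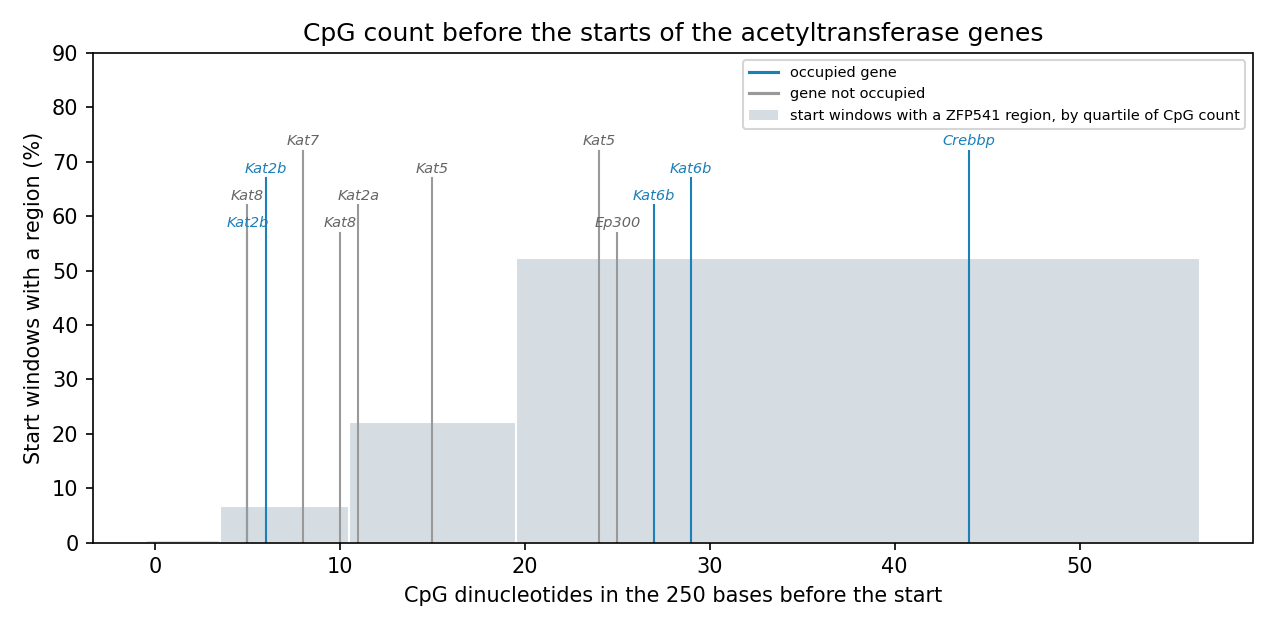
Share of start windows that overlap a ZFP541 region (bars, %) by quartile of the number of CpG dinucleotides in the 250 bases before the start (x axis), with the start windows of 8 of the genes as lines, coloured for occupied genes. Crebbp, at 44, and Kat6b, at 27 and 29, lie in the highest bar, and Kat2b, at 6, in a low one. Overlap was read over the whole annotated start window, CpGs only before the start.

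Other acetyltransferases and the partner subunits of these enzymes were described from 5 lists with 70 genes, of which 32 were occupied, where the share of all protein-coding genes was 21%. No gene of these lists had a KO peak within 10 kb, where 0.34% of all protein-coding genes had one. For 9 of the 32 the region also reached an end of another coding gene. In the list of SAGA and ATAC subunits, the complexes of Kat2a and Kat2b, 12 of 22 were occupied. The highest were Yeats2, a histone reader of ATAC (13.7 and 11.4 in WT replicates 1 and 2), Wdr5, a scaffold shared with methyltransferase complexes (8.94 and 11.4), and Zzz3 of ATAC (11.1 and 8.73). The others were Tada1, Tada2a, Sgf29, Supt3, Taf5l, Taf9, Taf10, Atxn7 and Atxn7l3. Of the subunits tied to the catalytic core, Tada2a and Sgf29 were occupied and Tada2b and Tada3 were not. Sgf29 had folds of 4.52 and 2.55, the latter at percentile 3.94 of WT replicate 2. The Tada2a region also reached an end of another coding gene.

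Of 16 TIP60/NuA4 subunits, 6 were occupied (background 21%) although Kat5 was not. At a −log10 q of at least 1.3 the count was 4 of 16, against 18.8% of coding genes. Ep400, the remodelling ATPase of the complex, had folds of 10.7 and 8.73 in WT replicates 1 and 2. Ing3, a reader of methylated histone H3, had 8.40 and 9.73, and Ruvbl1, an AAA+ ATPase, had 3.21 and 7.38. Epc2, Yeats4 and Mbtd1 were the others, and Trrap, the scaffold shared with SAGA, was not occupied. Yeats4 had folds of 3.57 and 2.38, the latter at percentile 2.40 of WT replicate 2. Of 9 partners of MOZ/MORF and HBO1, 2 were occupied by regions of both WT replicates (background 21%). This count depended on requiring both libraries, with 5 of 9 without WT replicate 1 (background 27.8%) and 4 of 9 without WT replicate 2 (background 23.7%). They were Brpf3 (7.09 and 10.4) and Jade3 (2.71 and 4.70), both scaffold subunits, whereas Brpf1 and Brd1 had no region at an end. Of 10 MSL and NSL subunits, the partners of MOF, 5 were occupied: Phf20 (5.15 and 11.1), Msl2 (4.64 and 6.38), Kansl1 (5.86 and 4.26), Kansl3 and Msl1.

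Among 13 other acetyltransferases and coactivators, 7 were occupied (background 21%). The circadian transcription factor gene Clock had the highest folds of all 5 lists by their mean, 14.7 and 16.8 in WT replicates 1 and 2. Within this list, the nuclear receptor coactivator genes Ncoa2 (9.66 and 18.1) and Ncoa1 (7.86 and 9.73) followed. Ncoa3, Kat14 (an ATAC subunit), Naa40 and Esco1 were the others, and Hat1, which acetylates newly made histone H4, was not occupied.

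**Figure D5:**
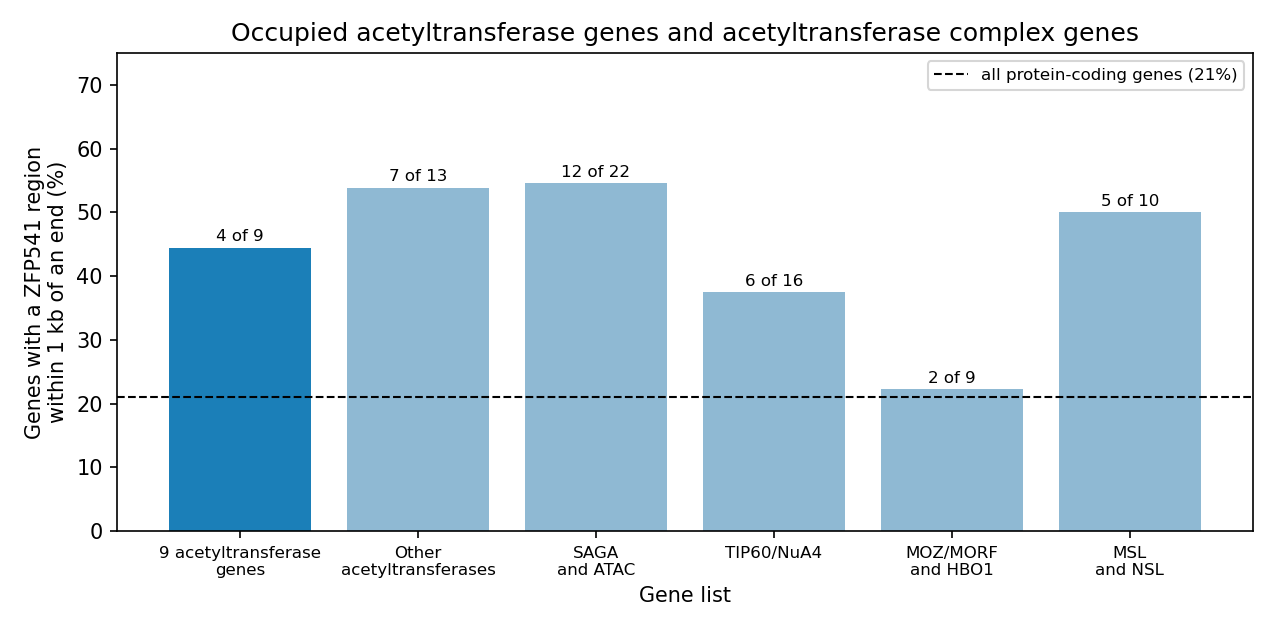
Share of genes (%) with a ZFP541 region within 1 kb of an end, for the 9 acetyltransferase genes and 5 lists of other acetyltransferases and complex subunits, with counts above the bars. The dashed line is the 21% of all protein-coding genes, and MOZ/MORF and HBO1 partners, with 2 of 9, lie nearest to it here. These partners had 5 of 9 without WT replicate 1 (27.8% of coding genes) and 4 of 9 without WT replicate 2 (23.7%).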

How the data were processed

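Peaks of 3 ZFP541 ChIP libraries were used. Per the notes of the submitters' processing, reads were processed on mm10 with MACS2 2.2.6, Bowtie2 2.3.5, cutadapt 2.6, deepTools 3.5.0, Picard and SAMtools 1.10. What each tool was set to, and the control and threshold behind each list, is not given in the sources used here. The deposited lists, 1 per library, give the authors' fold enrichment (a ratio), −log10 p-value, −log10 q-value, a score of 10 times the −log10 q-value, and the summit. Lists hold peaks with q-values above 0.05 and begin at a −log10 p-value of 4.47 in the KO, 2.71 in WT replicate 1 and 2.54 in WT replicate 2.

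Positions are 1-based. Genes and start windows came from RefSeq GRCm38.p6; 340 entries (108 coding) listed before 3 Mb on autosomes and X were left out as scaffold coordinates. All 9 genes matched by symbol, 8 of them to a start window; Kat6a is described by gene ends. Regions and occupancy were counted as described above, in Python 3.11.15 with numpy 2.4.6 and pandas 2.3.3, and interval matching was tested on simulated data. Named are the 9 genes, all occupied genes of the 5 lists with values for up to 3 by mean fold, genes nearer to a peak than the member, and the rank neighbours of the highest-ranked member. Rela, Tac4 and Gm46036, the genes at the Kat5, Kat7 and Kat6a peaks, were named after their values were seen. So were Sgo1, Ank1 and the subunits named as not occupied. Genes, lists and letters searched were chosen with earlier results of these data known.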

Additional observations from a re-analysis of the deposited data

How the results depend on the processing

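The alternatives for the KO count were all stricter or narrower, so its 0 could not rise. A −log10 q of at least 1.3 or a 50% reciprocal overlap, end windows of 500 bp and 2 kb, keeping regions with a KO peak, and the lowest −log10 p of the KO list (chosen after seeing the data) each left Crebbp, Kat2b, Kat6a and Kat6b as the occupied genes. Of all coding genes, 18.8%, 15.3%, 19.8%, 22.4%, 21% and 18.4% were occupied under these settings, in the order given. At a −log10 q of at least 1.3, 28 of the 70 list genes were occupied, against 18.8% of coding genes. SAGA and ATAC then had 11 of 22, TIP60/NuA4 4 of 16 and MOZ/MORF and HBO1 1 of 9. The other lists kept their counts of 7 and 5. At 5, Crebbp was lost and 3 of the 9 remained, and 19 of the 70 list genes were occupied, against 11.8% of coding genes. WT replicate 2 then had peaks within 10 kb of 4 of the 9 genes. At 10, only Kat6b was occupied (1 of the 9, against 6.78% of coding genes). Regions were then within 10 kb of 2, peaks at 2 in WT replicate 1 and 3 in WT replicate 2, and 11 list genes were occupied. These counts fall with the list lengths. Leaving out either WT replicate gave 4 to 6 occupied genes and 40 to 42 occupied list genes, against 23.7% to 27.8% of coding genes. A region then lay within 10 kb of 5 to 7 of the 9. The shares in this paragraph are of genes occupied at an end, and none was counted for the 10 kb counts of these alternatives. With annotated starts only, 3 of 8 genes were occupied (21.7% of coding genes), and with region summits in the window 3 of 9, without Kat6b (19.6%). No paired analysis was possible because no peak lists of the inputs were used and the KO has 1 library. Missing peaks at unknown depth do not show unbound sites.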

Other observations

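Of the 19 peaks at these genes, 14 had folds on a ladder of repeated values and 5 did not. In WT replicate 1, 4487 of 8236 folds (54.5%) were whole multiples of 0.357, to within 0.001 of a step (wider in proportion above 10 steps), and in WT replicate 2, 6531 of 10371 (63.0%) were whole multiples of 0.336. The most common fold, 9 steps, was shared by 623 and 967 peaks. In WT replicates 1 and 2, the Kat6b peaks stood at 23 and 23 steps, those at the Kat2b start at 16 and 18, and the stronger Kat6a peaks at 17 and 33. The Kat2a peak and the second Kat2b peak of WT replicate 2 stood at 10 steps and had the same fold, 3.36. Off the ladder were the Ep300 peak at 7.89 steps, Crebbp peaks at 11.4 steps in WT replicate 1 and at 13.4 and 9.54 in WT replicate 2, and the Kat8 peak of WT replicate 2 at 23.96. The folds 5.71 at Kat2b and 6.07 at Kat6a in WT replicate 1 were 16 and 17 steps, 1 step apart, and no fold on the ladder can lie between them.

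Beyond the 10 kb windows, peaks lay near Sgo1, which encodes the protector of centromeric cohesin and neighbours Kat2b. They were 16368 and 16165 bp from Kat2b, with folds of 3.97 and 7.55 in WT replicates 1 and 2. Peaks near an end of Ank1 lay 30864 and 31105 bp from Kat6a, with folds of 6.43 and 7.38.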
